A study of Mus musculus with 2 samples.

Results

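Regulatory T cells were singled out in single-cell RNA sequencing of subcutaneous mouse tumours. Tumours came from mice given a diet without serine and glycine and from mice given a control diet. The sample titles abbreviate these groups as SG and CT, which were read as serine/glycine-free and control from the series' own design text. Each diet is represented by 1 library. No source used here gives the tumour line, the strain or age of the mice, or how many animals a library pools. A barcode was kept as a cell when it held at least 500 unique molecular identifiers (UMIs, each counting 1 captured RNA molecule), at least 300 genes and at most 20% mitochondrial UMIs. A kept cell was taken as a regulatory T cell when it had a UMI of Cd3d, Cd3e or Cd3g, no UMI of Cd8a or Cd8b1, at most 1 UMI of the C1q genes and at most 3 UMIs of Hmga2 and Rhox5. It also had to hold Foxp3, or Cd4 together with Il2ra. The cells were thus chosen by their measured UMIs of these genes. The rule found 50 of 20312 kept cells in the serine/glycine-free library and 32 of 14159 kept cells in the control library, 82 of 34471 in all.

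Regulatory T cells are CD4 T cells that restrain other lymphocytes and maintain tolerance to self. Their identity is set by the transcription factor Foxp3, and they carry the high-affinity interleukin-2 receptor chain CD25 (Il2ra), the checkpoint receptor CTLA-4 and the transcription factor Helios (Ikzf2). In tumours they often take an activated, effector-like state with costimulatory receptors of the TNF receptor family such as OX40 (Tnfrsf4), GITR (Tnfrsf18) and 4-1BB (Tnfrsf9), and they are known for limiting CD8 T cell responses there. The markers of the label are Foxp3, Il2ra, Cd4, Itgb8, Klrg1 and Il10. Foxp3, Il2ra and Cd4 are in the rule and so check nothing, which leaves Itgb8, Klrg1 and Il10. In the mouse build mm10 Foxp3 lies on chromosome X (7573644 to 7595245, plus strand), Il2ra on chromosome 2 (11642807 to 11693193, plus strand), Cd4 and Klrg1 on chromosome 6 (124864692 to 124888221 and 122270596 to 122282882, both minus strand), Itgb8 on chromosome 12 (119158022 to 119238802, minus strand) and Il10 on chromosome 1 (131019845 to 131024974, plus strand). Counts were made per gene, so no exon or transcript is resolved.

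The 2 libraries held 173592046 and 173785388 UMIs, spread over 20662 barcodes in the serine/glycine-free library and 14774 in the control library, so the median kept cell was shallower under the serine/glycine-free diet (7570 UMIs) than under the control diet (11512 UMIs). The regulatory T cells were far shallower than that. The 50 serine/glycine-free cells held 614 to 5456 UMIs with a median of 1187, and the 32 control cells held 1047 to 5187 UMIs with a median of 1665. Of these cells, 16 of 50 and 0 of 32 were under 1000 UMIs. In all they held 79349 and 67100 UMIs. Scrublet, a caller of barcodes that hold 2 cells, marked 1206 kept cells (5.94%) and 571 kept cells (4.03%). It marked 1 of the 50 serine/glycine-free regulatory T cells and 0 of the 32 control ones, and none were removed. The libraries shared 79 barcodes among kept cells and 0 among regulatory T cells. With 1 library per diet no difference could be tested. The intervals given are 95% intervals that cover counting error, not the spread between animals. Those of log2 ratios treat each UMI as independent. They thus also leave out the spread between cells, and are too narrow where 1 cell holds many of a gene's UMIs.

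Markers that the rule did not use went with the label. At least 1 UMI of Ctla4, Ikzf2, Tnfrsf4 or Tnfrsf18 was found in 48 of 50 serine/glycine-free cells (96%) and in 32 of 32 control cells. The same genes were common in the nearest classes, in 57.5% and 72% of other CD8-negative CD3-positive cells and 78.4% and 79.3% of CD8 T cells. Ikzf2 was detected in 86% (exact interval 73.3 to 94.2%) and 87.5% (71.0 to 96.5%) of them, against 27.6% and 37.9% of the other CD8-negative CD3-positive cells and 37.2% and 47% of CD8 T cells. C1q-positive macrophages, which should lack it, gave 2.5% and 4.57% at median depths of 3502 and 5035 UMIs. Itgb8, an integrin chain that activates latent TGF-beta, was detected in 30% and 40.6% of regulatory T cells, against 6.21% and 1.65% of the other CD8-negative T cells and 0.081% and 0.102% of macrophages. Klrg1, a receptor of differentiated effector lymphocytes, was detected in 20% and 21.9%, against 3.69% and 8.24% of the other CD8-negative T cells and 0.225% and 0.333% of CD8 T cells. Il10, which encodes an inhibitory cytokine, was scarce, with 5 UMIs in 3 of 50 cells and 2 UMIs in 2 of 32 cells. The macrophages' share with an Il10 UMI was 1.86% and 1.32%. Izumo1r, which encodes folate receptor 4, was detected in 38% and 31.2% of regulatory T cells, against 10.3% and 4.40% of other CD8-negative T cells. Lrrc32, a further regulatory T cell gene, had no UMI in any of the 82 cells.

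**Figure D1:**
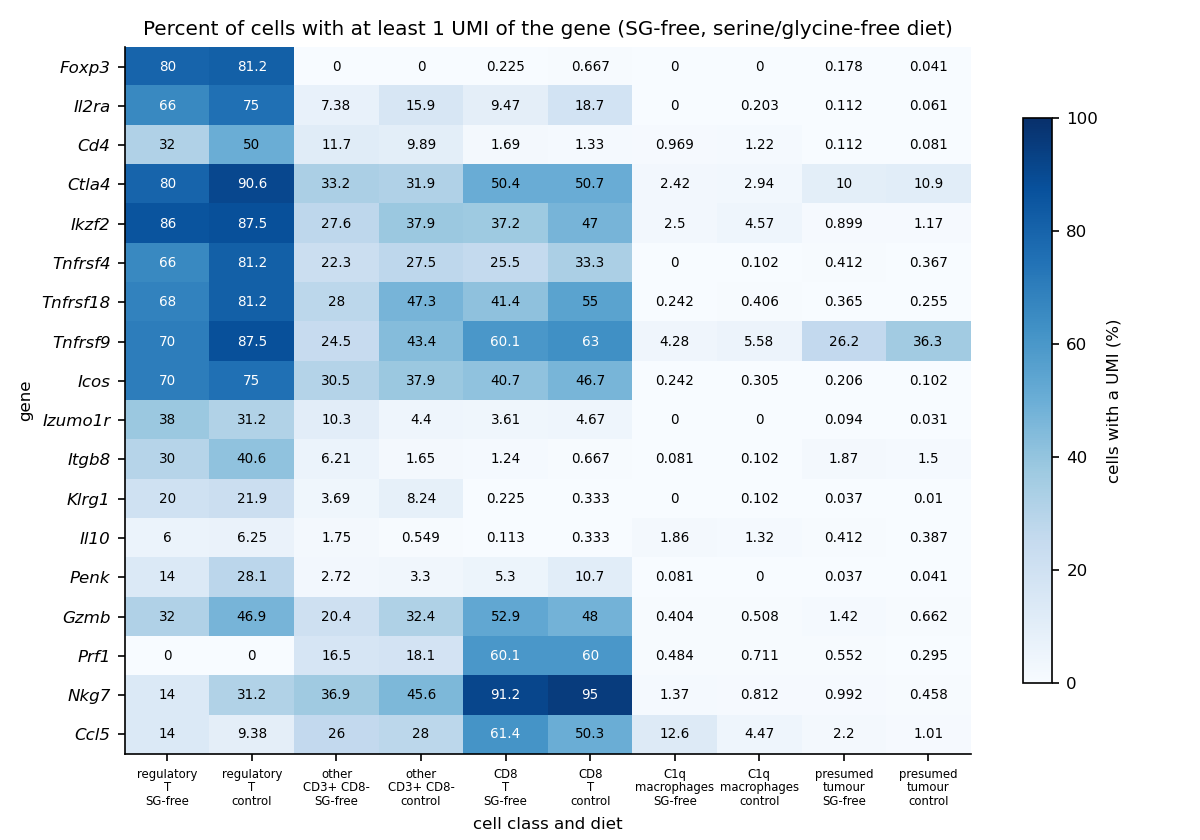
Percent of cells with at least 1 UMI of each gene (rows) in each cell class and diet (columns); SG-free is the serine/glycine-free diet. Foxp3, Il2ra and Cd4 were used to choose the regulatory T cells. Ikzf2 was detected in 86% and 87.5% of regulatory T cells, and Prf1 in 0% of them in both libraries.

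Foxp3 itself chose most of the cells and is given as a description. It had 53 UMIs in 40 serine/glycine-free cells and 46 UMIs in 26 control cells, with at most 3 and 4 UMIs in a cell. Those are 80% and 81.2% of the cells chosen. A second Foxp3 UMI was present in 11 of 50 serine/glycine-free cells (22%) and in 13 of 32 control cells (40.6%). The other 10 and 6 cells entered with Cd4 and Il2ra but without Foxp3. Of those, 7 of 10 and 4 of 6 held Ikzf2, 8 of 10 and 4 of 6 held Ctla4, and 1 of 10 and 0 of 6 held Ifng, a cytokine of conventional effector cells. Of the other genes listed for such effector cells, Nkg7 was held by 2 of 10 and 2 of 6, and Ccl5 by 3 of 10 and 0 of 6. Il2ra had 77 UMIs in 33 serine/glycine-free cells and 77 UMIs in 24 control cells.

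The limits of the rule decided which Foxp3-positive barcodes entered. Foxp3 was detected in 90 kept cells of the serine/glycine-free library (110 UMIs) and in 40 of the control library (62 UMIs), so that 48.2% and 74.2% of each library's Foxp3 UMIs lay in the cells chosen. The largest group outside held more than 3 UMIs of Hmga2 and Rhox5, the genes used here to mark presumed tumour cells. In it 22 serine/glycine-free and 6 control barcodes had no CD3 UMI, and 16 and 3 held CD3. The CD3-positive ones had median depths of 13014 and 12619 UMIs, close to those of presumed tumour cells (10217.5 and 13522.5 UMIs). A further 7 and 2 Foxp3-positive barcodes had no CD3 UMI. Just inside the limits, 7 serine/glycine-free and 2 control cells held the single C1q UMI allowed, and 0 and 0 held 3 UMIs of Hmga2 and Rhox5. Just outside, 1 and 1 held 2 to 4 C1q UMIs, and 3 and 0 held 4 to 9 UMIs of Hmga2 and Rhox5.

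RNA of other cell types was found at low levels in many of the cells and at high levels in a few. Of the markers of gamma-delta T cells, 0 and 21 UMIs were found over all regulatory T cells, 20 of the 21 in 1 control cell. Markers of CD8 T cells, among them Cd8a and Cd8b1 that the rule bars, had 19 UMIs in 4 serine/glycine-free cells, 16 in 1 of them. In the control library they had 8 UMIs in 4 cells. Natural killer markers had 1 and 0 UMIs, and neutrophil and mast cell markers 0 and 0. Macrophage markers had 98 UMIs in 31 of the 50 serine/glycine-free cells, 51 of them in 1 cell, and 117 UMIs in 19 of the 32 control cells, 95 of them in 1 cell. Lyz2 alone had 68 UMIs in that control cell. Dendritic cell markers, among them MHC class II genes, had 111 UMIs in 23 serine/glycine-free cells, 52 in 1 of them, and 78 UMIs in 15 control cells, 58 in 1 of them. B and plasma cell markers had 85 UMIs in 13 serine/glycine-free cells, 69 in 1 of them, and 11 UMIs in 9 control cells. Presumed tumour markers had 13 UMIs in 11 cells and 9 UMIs in 8 cells, and stromal and endothelial markers 12 UMIs in 11 cells and 4 UMIs in 4 cells. The list of conventional CD4 effector genes had 45 UMIs in 17 serine/glycine-free cells and 35 UMIs in 19 control cells. Within it, Cd40lg had 0 and 1 UMIs and Il2 had 1 and 0 UMIs. Leaving out the 3 and 2 cells that held at least 10 UMIs of a list of another cell type is an alternative added after the data were seen, and it is named below where it matters.

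Regulatory T cells made up a smaller part of the T cells under the serine/glycine-free diet. They were 3.44% of CD3-positive cells in the serine/glycine-free library (50 of 1452, exact interval 2.57 to 4.51%) and 6.23% in the control library (32 of 514, 4.30 to 8.68%). The ratio of the shares was 0.553 (0.359 to 0.852). Against CD8 T cells there were 5.64 and 10.7 regulatory T cells per 100, a ratio of 0.528 (0.333 to 0.839). Within the CD8-negative T cells they were 8.85% and 15%, a ratio of 0.592 (0.391 to 0.896). Of all kept cells they were 0.246% (0.183 to 0.324%) and 0.226% (0.155 to 0.319%), a ratio of 1.09 with an interval of 0.699 to 1.70 that spans 1. Over the same cells the share of CD8 T cells was 4.37% in the serine/glycine-free library and 2.12% in the control library, a ratio of 2.06 (1.81 to 2.35), and that of other CD8-negative T cells 2.54% and 1.29%, a ratio of 1.97 (1.67 to 2.33). Thus the regulatory T cell share of all cells was not distinguishable between the libraries beyond counting error, and the shares of the other T cell classes were about 2-fold higher under the serine/glycine-free diet.

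The serine/glycine-free cells had fewer UMIs, and the shares moved with depth. In 1 alternative, cells under 1500 UMIs were left out and CD3-positive cells were thinned to 1500 UMIs for Foxp3, Cd4 and Il2ra only. The CD3, CD8, C1q, Hmga2 and Rhox5 criteria kept full counts, so the denominators were not matched in depth. There 13 and 17 regulatory T cells remained. The ratio over CD3-positive cells was 0.373 (0.183 to 0.759) and the ratio over all cells was 0.564 (0.274 to 1.16). With the limits on C1q, Hmga2 and Rhox5 lifted, 73 and 36 cells were counted and the ratios were 0.645 and 1.41. When other CD8-negative T cells holding Ctla4, Ikzf2 and Tnfrsf4 at once were counted too, there were 101 and 51 cells and the ratios were 0.701 (0.508 to 0.967) and 1.38 (0.987 to 1.93). The ratio over CD3-positive cells was below 1 in all 10 alternatives, from 0.373 to 0.701, whereas that over all cells lay on either side of 1.

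**Figure D2:**
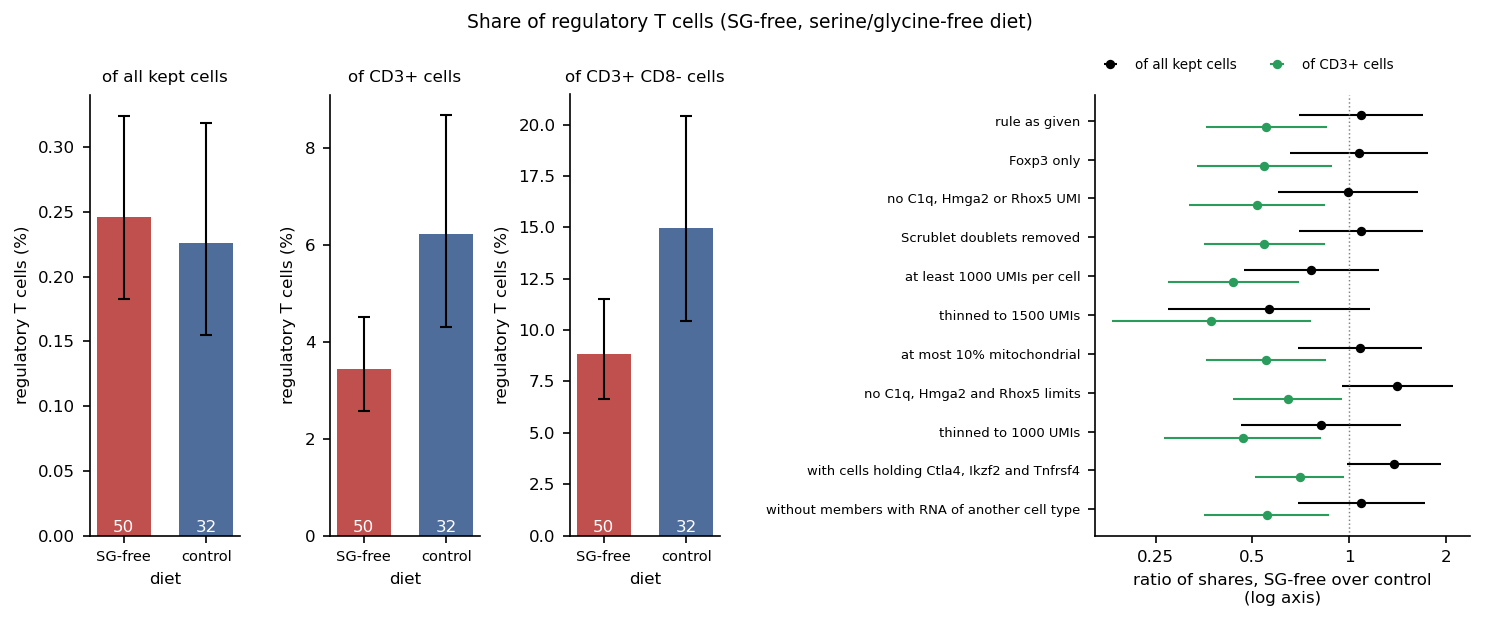
Left, percent of regulatory T cells among 3 denominators, with exact 95% intervals and the number of cells in each bar; right, ratio of the shares, serine/glycine-free (SG-free) over control, on a log axis under each way of choosing cells, with 95% intervals. The ratio over CD3-positive cells (green) lay between 0.373 and 0.701 in the alternatives; that over all kept cells (black) lay between 0.564 and 1.41.

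Among the regulatory T cells the list of regulatory identity genes had a median ratio near equal between the diets. Summed UMIs of the cells of each library were divided by their total and scaled (counts per 1000000 UMIs, CPM). Ratios are log2 of serine/glycine-free over control, taken for the 1479 genes with at least 20 UMIs over both libraries. Over all of these the median log2 ratio was 0.02, with 760 genes higher and 719 lower. Of the 13 identity genes that reached 20 UMIs, 4 were higher and 9 lower, and their median was -0.11. Foxp3, Il2ra and Cd4 are among them, and their levels are set by the rule. The 10 others were 4 higher and 6 lower, with a median of -0.10. Ctla4 had 193 UMIs in 40 serine/glycine-free cells and 169 UMIs in 29 control cells, a log2 ratio of -0.05 (-0.36 to 0.26). Ikzf2 had 265 and 179 UMIs, a log2 ratio of 0.32 (0.05 to 0.61). Tnfrsf4 was the identity gene whose interval lay wholly below 0, with 88 UMIs in 33 serine/glycine-free cells and 127 UMIs in 26 control cells, a log2 ratio of -0.77 (-1.18 to -0.37). A single control cell gave 20 of its UMIs. With cells thinned to 1000 UMIs, Tnfrsf4 was found in 58.8% of 34 serine/glycine-free cells and 75% of 32 control cells. Tnfrsf18 (82 and 88 UMIs) had a log2 ratio of -0.34 (-0.80 to 0.11).

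**Figure D3:**
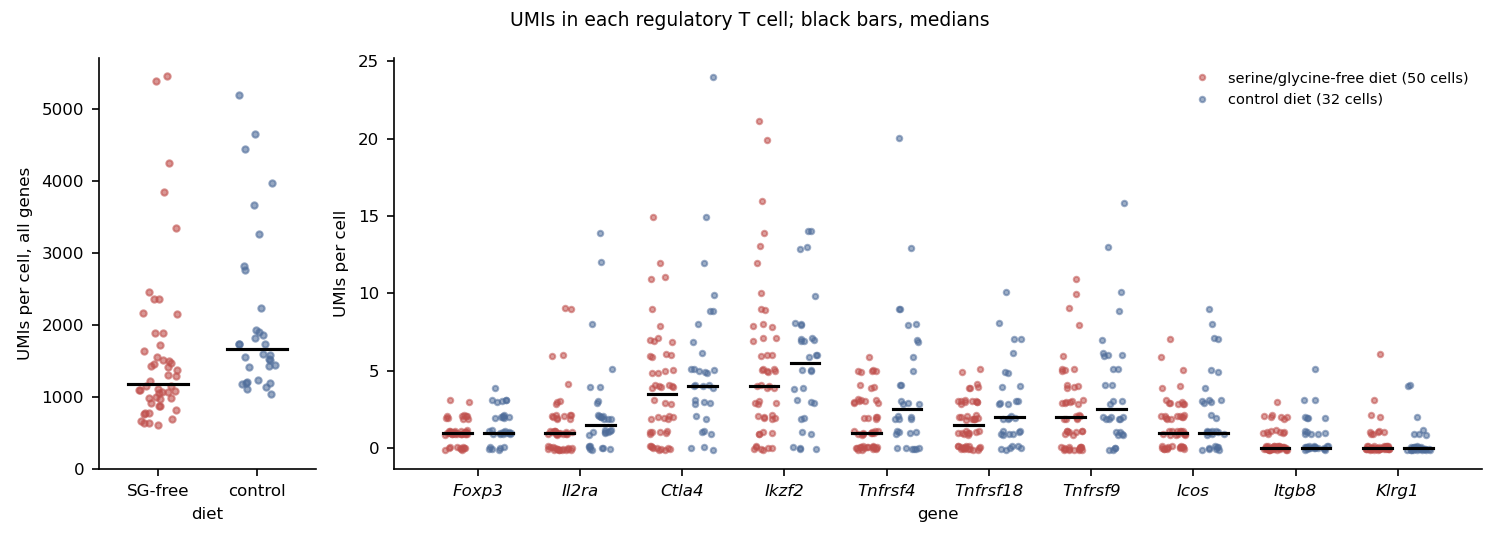
Left, UMIs of all genes in each regulatory T cell; right, UMIs of 10 genes in each cell, serine/glycine-free (SG-free, red, 50 cells) beside control (blue, 32 cells), with small random offsets so that points do not overlap and black bars at medians. Cells had a median of 1187 and 1665 UMIs, and most genes were seen at 0 to 5 UMIs per cell.

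More of the effector and tissue regulatory T cell genes were lower than higher under the serine/glycine-free diet, by an amount that differed between the alternatives. Of 15 genes with enough UMIs, 3 were higher and 12 lower, with a median log2 ratio of -0.38, while the same genes had medians of -0.11 in the other CD8-negative T cells and -0.02 in CD8 T cells. The list's median was negative in the 12 alternatives, from -0.84 with Foxp3-positive cells alone to -0.079 for the 8 genes left after thinning to 1000 UMIs. Gzmb, the cytotoxic protease granzyme B, had 30 UMIs in 16 of 50 serine/glycine-free cells and 53 UMIs in 15 of 32 control cells, 24 of them in 1 control cell. Its log2 ratio was -1.06 (-1.76 to -0.39). In 1 random draw of 1000 UMIs per cell it had 14 UMIs in 6 of 34 serine/glycine-free cells and 28 UMIs in 13 of 32 control cells. In a separate draw of 1000 UMIs the Gzmb ratio was -0.17, so thinned values also varied with the draw. The ratio was -1.93 after thinning to 1500 UMIs and -0.40 without the top cell of each library. With cells holding Ctla4, Ikzf2 and Tnfrsf4 added it was -0.34. Batf, a transcription factor of effector regulatory T cells, had 13 and 24 UMIs and a log2 ratio of -1.13 (-2.22 to -0.10). The Batf ratio was 0.39 when cells were thinned to 1500 UMIs and -0.10 without the top cells. Maf, another transcription factor of activated T cells, had 39 and 55 UMIs and a log2 ratio of -0.74 (-1.37 to -0.12). Areg, the tissue-repair growth factor amphiregulin, had 1 UMI in 1 serine/glycine-free cell and 12 UMIs in 5 control cells, too few for the 20 UMI minimum. Icos, Tnfrsf9, Itgb8 and Klrg1 did not lean beyond counting error. Their log2 ratios were -0.13 (-0.60 to 0.35) for Icos, -0.27 (-0.64 to 0.11) for Tnfrsf9, -0.36 (-1.24 to 0.51) for Itgb8 and 0.20 (-0.87 to 1.31) for Klrg1. Itgav, whose integrin chain pairs with that of Itgb8, had 77 and 113 UMIs and a log2 ratio of -0.80 (-1.23 to -0.36), against 0.23 in other CD8-negative T cells and 0.20 in CD8 T cells.

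Klrg1 and Itgb8 were each found in part of the cells. Either was found in 22 of 50 serine/glycine-free cells (44%, 30 to 58.7%) and 17 of 32 control cells (53.1%, 34.7 to 70.9%), and both in 3 and 3. The cells with either gene were deeper (median 1393 UMIs with, 1076 without in the serine/glycine-free library; 1856 with, 1534 without in the control library), so levels are given as CPM. Maf stood at 747 CPM with and 263 CPM without in the serine/glycine-free library, and at 942 and 622 CPM in the control library. Ccr2, a chemokine receptor, stood at 427 CPM with and 215 CPM without, and at 483 and 156 CPM in the control library. Gzmb stood at 560 CPM with and 215 CPM without, and at 894 and 622 CPM in the control library. The 894 CPM came from 37 UMIs, 24 of them in 1 cell, so the control difference in Gzmb hung on that cell. Bcl2, a survival factor, went the other way, with 4 UMIs in the 22 cells with either gene and 32 UMIs in the 28 without, and 0 UMIs in 17 and 10 UMIs in 15 control cells. A single serine/glycine-free cell held 12 of those 32 UMIs, and a single control cell 6 of the 10. Il1rl1, the interleukin-33 receptor, and Areg were found in 4 and 4 of the 17 control cells with either gene. In the 15 control cells without, they were found in 0 and 1. In the serine/glycine-free cells they were found in 1 and 1 of the 22 with either gene, and in 2 and 0 of the 28 without. Tox did not follow 1 pattern, at 1280 CPM with and 2700 CPM without in the serine/glycine-free library but 1667 and 1050 CPM in the control library.

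Genes of resting and central T cells leaned the opposite way. Of 7 with enough UMIs, 6 were higher and 1 lower, with a median log2 ratio of 0.40. The same genes had medians of 0.38 in other CD8-negative T cells and -0.04 in CD8 T cells. Bcl2 had 36 UMIs in 12 serine/glycine-free cells and 10 UMIs in 3 control cells, a log2 ratio of 1.61 (0.57 to 2.78), against -0.09 in other CD8-negative T cells and -0.26 in CD8 T cells. Its UMIs lay mostly in a few cells. The serine/glycine-free cells with 12, 6, 5 and 5 of them held no Ctla4 UMI, and held 0, 0, 0 and 4 UMIs of Ikzf2. The control cells, with 6, 3 and 1, held no Ikzf2 UMI, and held 15, 0 and 1 UMIs of Ctla4. Bach2, a repressor that holds T cells in a resting state, had 27 UMIs in 8 cells and 10 UMIs in 5 cells, a log2 ratio of 1.19 (0.10 to 2.40) that was -0.31 after thinning to 1000 UMIs. Il7r, the interleukin-7 receptor (44 and 32 UMIs), had a log2 ratio of 0.22 (-0.47 to 0.92). In the interleukin-2 list, 3 of 8 genes were higher and 5 lower, with a median of -0.17. Its lowest was Il2rg, the shared cytokine receptor chain, with 12 UMIs in 9 serine/glycine-free cells and 26 UMIs in 21 control cells, a log2 ratio of -1.36 (-2.48 to -0.32).

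**Figure D4:**
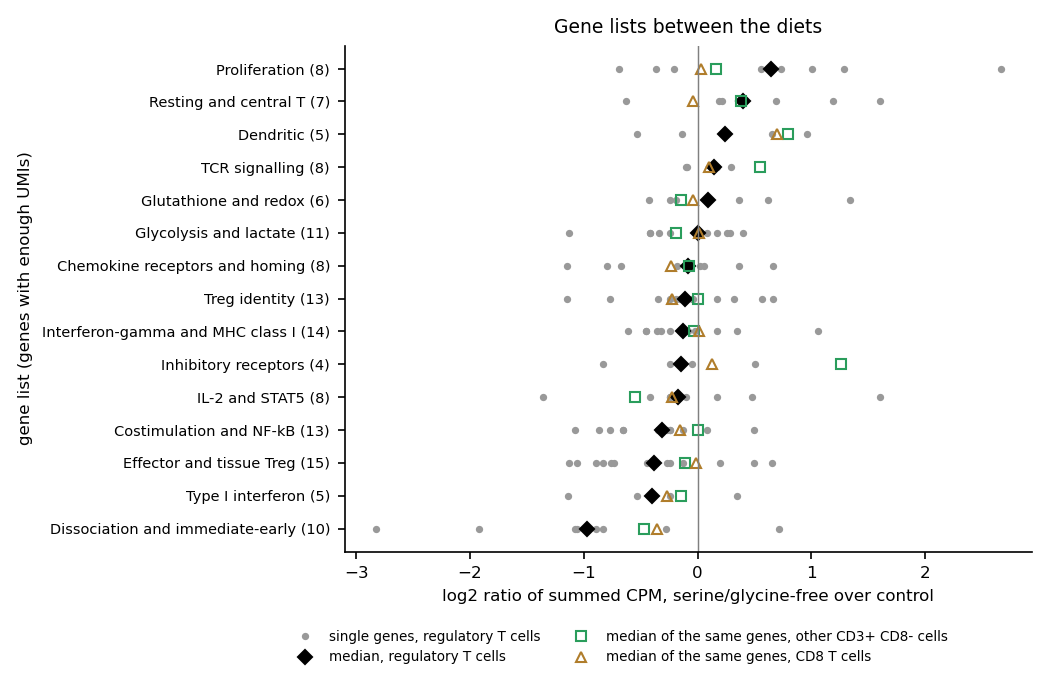
Log2 ratio of summed CPM, serine/glycine-free over control, for each gene list with at least 4 genes of 20 UMIs or more (number in brackets); grey points are single genes in regulatory T cells, diamonds their median, squares and triangles the medians of the same genes in other CD8-negative and in CD8 T cells. The immediate-early list had the lowest median, -0.97, and the proliferation list the highest, 0.65.

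The widest lean between the diets was in the dissociation and immediate-early list, genes switched on within minutes of a stimulus or of tissue handling. Of 10 genes, 1 was higher and 9 lower, with a median log2 ratio of -0.97, against -0.47 in other CD8-negative T cells and -0.36 in CD8 T cells. Klf6, a zinc-finger transcription factor, had 6 UMIs in 3 of 50 serine/glycine-free cells and 36 UMIs in 19 of 32 control cells, a log2 ratio of -2.83 (-4.36 to -1.57). At 1000 UMIs per cell it was found in 1 of 34 serine/glycine-free and 13 of 32 control cells. Junb, part of the AP-1 factor, had 38 and 67 UMIs and a log2 ratio of -1.06 (-1.67 to -0.46). Jund had 31 and 51 UMIs and -0.96 (-1.65 to -0.29). Nfkbia, the inhibitor of NF-kappaB, had 37 and 66 UMIs and -1.08 (-1.70 to -0.47), against -0.48 in other CD8-negative T cells and 0.02 in CD8 T cells. Hspa8, a constitutive chaperone, was the 1 gene higher, with 111 and 57 UMIs and a log2 ratio of 0.72 (0.25 to 1.21). The list's median stayed negative in all 12 alternatives, from -1.14 to -0.29. In the costimulation and NF-kappaB list, which also holds Nfkbia, Tnfrsf4 and Icos, 2 of 13 genes were higher and 11 lower, with a median of -0.32. How each group's tumours were dissociated is not stated in the sources used here, and its part in this lean was not tested.

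Proliferation genes did not point one way. Of 8 with enough UMIs 5 were higher and 3 lower, with a median log2 ratio of 0.65, which was -0.24 when cells with any C1q, Hmga2 or Rhox5 UMI were left out. Mki67 or Top2a, which mark dividing cells, were found in 9 of 50 serine/glycine-free cells (18%, 8.58 to 31.4%) and 9 of 32 control cells (28.1%, 13.7 to 46.7%), against 33.8% and 37% of CD8 T cells. Pclaf, a partner of the replication clamp, had 30 UMIs in 6 serine/glycine-free cells, 11 in 1 of them, and 4 UMIs in 2 control cells. The cell with 11 also held 41 UMIs of Igkc, a B and plasma cell marker. Pcna had 19 UMIs in 8 cells and 8 UMIs in 7 cells, a log2 ratio of 1.01 (-0.25 to 2.41).

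Over all 1479 genes, 103 (6.96%) were at least 2-fold higher and 67 (4.53%) at least 2-fold lower in the serine/glycine-free regulatory T cells, 11.5% in either direction. None of the 13 identity genes was 2-fold higher and 1, Itgae, was 2-fold lower. None of the 15 effector genes was 2-fold higher and 2, Gzmb and Batf, were 2-fold lower. Of the 10 immediate-early genes 0 were 2-fold higher and 4 (Klf6, Jun, Junb and Nfkbia) 2-fold lower. These counts come from 50 and 32 cells. With a minimum of 50 UMIs, 7 of 432 genes (1.62%) were 2-fold higher and 9 (2.08%) lower.

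The genes farthest from equal between the diets, ranked by the end of the interval nearest to 0, were mostly not regulatory T cell genes. Rabgap1l, a regulator of membrane traffic, was the best sampled of those higher, with 153 UMIs in 41 of 50 serine/glycine-free cells and 59 UMIs in 23 of 32 control cells, a log2 ratio of 1.13 (0.69 to 1.59). At 1000 UMIs per cell it was found in 29 of 34 and 16 of 32 cells. It was 0.68 in other CD8-negative T cells and -0.01 in CD8 T cells. Mbd5, a chromatin-associated protein gene, had 28 UMIs in 23 serine/glycine-free cells and 3 UMIs in 3 control cells, a log2 ratio of 2.98 (1.29 to 5.34), against 0.68 and 0.18. Its UMIs were spread over cells, at most 3 in any. Gm2682, a predicted gene, had 33 UMIs in 8 serine/glycine-free cells and 1 UMI in 1 control cell, a log2 ratio of 4.80 (2.22 to 10.1). That was 0.87 when cells holding Ctla4, Ikzf2 and Tnfrsf4 were counted too. Msn, the membrane-to-actin linker moesin, had 43 and 12 UMIs, 1.6 (0.65 to 2.66). Prdx1, a peroxidase of the redox list, had 45 and 15 UMIs, 1.34 (0.47 to 2.29). Utrn, Camk1d, Sp100 and Arap2 were the others, between 1.52 and 1.65. Apoe, a lipid carrier of macrophages, had 30 and 5 UMIs, but 19 of the 30 were in 1 cell.

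Among genes lower under the serine/glycine-free diet, Klf6 stood first. Gm42418 and AY036118, whose gene models overlap ribosomal RNA repeats, followed a lean shared with the other T cells. Gm42418 had 182 and 335 UMIs, 91 of the 335 in 1 control cell, and a log2 ratio of -1.12 (-1.39 to -0.86), against -0.51 and -0.59 in other CD8-negative and CD8 T cells. AY036118 had 25 and 60 UMIs and -1.50 (-2.24 to -0.81), against -1.02 and -1.35. Nfat5, the osmotic stress transcription factor, had 11 UMIs in 9 serine/glycine-free cells and 30 UMIs in 16 control cells, -1.69 (-2.83 to -0.65), against 0.02 and -0.33. Ifrd1, Rnf157, Clk1, Hnrnpa1 and Gm47283 lay between -1.73 and -1.06. Lyz2, a macrophage gene, was -2.11, with 68 of its 73 control UMIs in 1 cell, and was 0.61 without the cell of each library that held most. Of the 24 genes ranked here, the other 23 kept their direction in each alternative that could be computed.

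**Figure D5:**
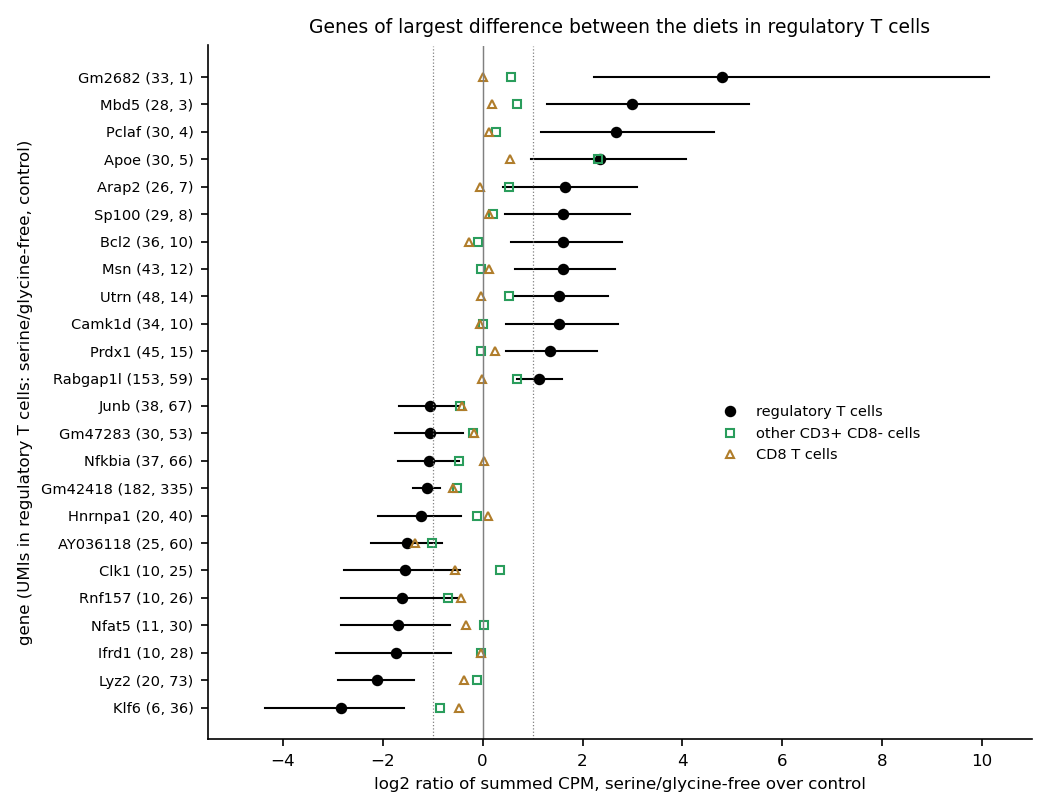
Log2 ratio of summed CPM, serine/glycine-free over control, for the 24 genes ranked by the end of their interval nearest to 0; circles with 95% counting intervals are regulatory T cells, squares other CD8-negative T cells and triangles CD8 T cells, and dotted lines mark 2-fold. UMIs in the 50 serine/glycine-free and the 32 control regulatory T cells stand in brackets.

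Of the interferon and antigen-presentation genes that reached 20 UMIs, most were lower under the serine/glycine-free diet. In the list of interferon-gamma and antigen-presentation genes 3 of 14 were higher and 11 lower, with a median of -0.13, between -0.42 and -0.079 in the alternatives. H2-D1, a heavy chain of MHC class I, had 372 and 402 UMIs and a log2 ratio of -0.35 (-0.56 to -0.15), and B2m, the light chain, had 234 and 247 UMIs and -0.32 (-0.58 to -0.06). Iigp1, an interferon-induced GTPase, had 32 and 13 UMIs and 1.06 (0.09 to 2.11), which was -0.07 after thinning to 1500 UMIs. Of 30 type I interferon genes listed, 5 reached 20 UMIs. Of these 1 was higher and 4 lower, with a median of -0.40, against -0.15 and -0.27 in other CD8-negative and CD8 T cells. That median lay between -0.88 and 0.76 in the alternatives, the latter over the 24 genes with a UMI in each library. The whole list summed to 3277 CPM in serine/glycine-free and 2951 CPM in control cells, with 48 of its 260 serine/glycine-free UMIs in 1 cell. Of 11 glycolysis genes 6 were higher and 5 lower, with a median of 0.01. Gapdh had 212 and 159 UMIs and a log2 ratio of 0.17 (-0.13 to 0.48). Genes of serine synthesis and one-carbon metabolism, which the diet bears on most directly, could not be resolved. Of 27 listed, 22 had any UMI and 2 reached 20, and the list summed to 1374 CPM in serine/glycine-free and 1222 CPM in control regulatory T cells. Of the 22 genes of the ATF4 amino acid response 1 reached 20 UMIs, Cebpb, with 11 and 17.

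The genes that stood highest in regulatory T cells over the other T cells of the same library are given as a description. The 469 genes considered had at least 20 UMIs in the regulatory T cells of each library, which favours genes high in them, and were ranked by the lower of their 2 ratios. Being higher in both libraries is thus part of the choice. Of them 40 (8.53%) were at least 2-fold higher than in other CD8-negative T cells in both libraries and 45 (9.59%) than in CD8 T cells. The median of all 1479 genes was itself above 0 in these comparisons, between 0.21 and 0.26. Penk, the enkephalin precursor, stood first against other CD8-negative T cells. It had 39 UMIs in 7 of 50 serine/glycine-free cells and 45 UMIs in 9 of 32 control cells, with log2 ratios of 3.85 (3.11 to 4.6) and 4.86 (3.86 to 6.02). Up to 14 UMIs came from 1 cell in each library. Cells that entered without Foxp3 gave 20 of the 39 serine/glycine-free UMIs and 4 of the 45 control UMIs. The control cell that held most gamma-delta marker UMIs gave 10 of the 45. Bmyc (2.96 and 2.91), Sh3rf1 (2.6 and 2.85), Itgb8 (2.09 and 5.02), Ikzf2 (2.05 and 2.17) and Ctla4 (1.98 and 3.0) came next. Cd5, a brake on antigen receptor signalling, stood at 1.83 and 2.37, and Cd81, a tetraspanin, at 1.74 and 1.97. Itgb8 differed between libraries in the other cells, which had 56 UMIs in 32 of 515 serine/glycine-free cells and 5 UMIs in 3 of 182 control cells.

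Against CD8 T cells Itgb8 (4.80 and 6.84), Izumo1r (4.40 and 4.52) and Maf (4.38 and 4.92) stood first. Atrnl1 (3.21 and 3.30), Ccr2 (2.70 and 2.70), Ramp1, a subunit of the receptor for the neuropeptide CGRP (2.75 and 2.66), Ly6a (2.57 and 2.90) and Zfp36l1, an RNA-binding protein gene (2.42 and 2.90), followed. At the other end, by a ranking added after the data were seen, stood genes of cytotoxic cells. Prf1, the pore-former perforin, had 0 UMIs in both sets of regulatory T cells and 2135 and 1013 UMIs in CD8 T cells, a log2 ratio of at most -4.74 and -4.61 when 3 UMIs per library are taken as the floor. Klrd1 had 2 and 0 UMIs against 2031 and 781, and Ccl5 had 13 and 3 UMIs against 2279 and 481. Gzmb was not among the 15 lowest of that ranking. It had 30 and 53 UMIs against 2301 and 771, with 24 of the 53 in 1 control cell. It was detected in 32% and 46.9% of regulatory T cells against 52.9% and 48% of CD8 T cells. The CD8 T cells were deeper, with medians of 1927 and 2468.5 UMIs against 1187 and 1665.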

How the data were processed

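Droplet single-cell RNA libraries of 1 tumour sample per diet were used. The deposited values are raw UMI counts for each gene in each barcode. The authors used Cell Ranger, version 7.0.1 per the file headers and 2.2.2 per the submitters' processing notes, on the genome mm10. The labels' protocol text describes cardiac tissue of another species, so tumour dissociation is unknown. Barcodes were filtered as given above. Doublets were called per library with Scrublet (scanpy 1.11.5) and kept in the main analysis. CD8 T cells were CD3-positive cells with Cd8a or Cd8b1. Other CD8-negative T cells were the CD3-positive rest. Macrophages had at least 5 C1q UMIs, no CD3 UMI and at most 3 UMIs of Hmga2 and Rhox5. Presumed tumour cells had at least 10 Hmga2 and Rhox5 UMIs and no UMI of CD3 or Ptprc. Shares have exact Clopper-Pearson intervals, ratios of shares log intervals, and log2 ratios of summed UMIs exact conditional binomial intervals (scipy 1.17.1). The exact intervals were checked on simulated counts drawn independently, as they assume. That check held no clustering of UMIs within cells, so it cannot tell how the intervals hold in these data. No p-value was computed, since each diet has 1 library.

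Genes named between diets were the 12 higher and 12 lower whose 95% bound nearest 0 lay farthest from 0, among genes with at least 30 UMIs, without mitochondrial, ribosomal protein, immunoglobulin and rule genes. Genes named against other T cells were the 15 with the largest lower value of the 2 within-library ratios. List genes were named by UMIs or by size of ratio. The members, lists and rules were chosen with earlier results of these data known. Alternatives covered the gate, depth, doublets, scaling and UMI minimum.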

Additional observations from a re-analysis of the deposited data

How the results depend on the processing

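No paired analysis was possible because each diet has 1 library. The share ratio over CD3-positive cells stayed below 1 in every alternative run, and so did regulatory T cells per 100 CD8 T cells, which gave 0.332 when thinned to 1500 UMIs. The ratio of the shares of all kept cells was 0.564 in that alternative, in which only Foxp3, Cd4 and Il2ra were thinned. The count of genes 2-fold higher and 2-fold lower was 7 and 9 of 432 (1.62% and 2.08%) with a minimum of 50 UMIs. It was 960 and 1208 of 7195 (13.3% and 16.8%) with no minimum beyond 1 UMI in each library. Thinning gave 24 and 22 of 430 (5.58% and 5.12%) at 1500 UMIs, and 27 and 28 of 551 (4.90% and 5.08%) at 1000 UMIs. With cells holding Ctla4, Ikzf2 and Tnfrsf4 added, it was 177 and 127 of the 2937 genes with 20 UMIs (6.03% and 4.32%). Without any C1q, Hmga2 or Rhox5 UMI it was 63 and 55 of 1029 (6.12% and 5.3%). The type I interferon median was 0.76 with no minimum. The dendritic median was 2.83 with Foxp3-positive cells alone and 1.5 without the cell that held most of each gene. The proliferation median was -0.24 without any C1q, Hmga2 or Rhox5 UMI. Lyz2 was 1.89 with Foxp3-positive cells alone, 1.20 without C1q, Hmga2 or Rhox5 UMIs, 0.61 without the top cells and 0.95 without cells holding RNA of another type. Batf was 0.39 and Iigp1 -0.067 after thinning to 1500 UMIs, and Bach2 was -0.31 after thinning to 1000. The cause was not tested in any of these. A further 39 gene values lay outside their counting interval without the reversal of a 2-fold difference. Klf6 ranged from -4.61 to -1.07, Junb from -1.23 to -0.31 and Gzmb from -1.93 to -0.17. The 213 other list, count and share values and 583 other gene values moved by less than that or, for counts, by under 1.5 times. Thinning to 1000 UMIs, lifting the C1q, Hmga2 and Rhox5 limits, adding cells with Ctla4, Ikzf2 and Tnfrsf4, and leaving out cells with RNA of another type were chosen after seeing the data. With 79349 and 67100 UMIs in all, a gene of 20 UMIs is known to within a few-fold by counting error alone. The spread between cells is not in the intervals, and 1 library per diet leaves the spread between animals unmeasured.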

Other observations

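Penk, the enkephalin precursor, was carried by few cells and not by regulatory T cells alone. It was found in 7 of 50 serine/glycine-free and 9 of 32 control regulatory T cells, and in 47 of 887 and 32 of 300 CD8 T cells (5.30% and 10.7%), against 0.037% and 0.041% of presumed tumour cells. Of each library's Penk UMIs, 14.6% and 26.0% lay in regulatory T cells.

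Foxp3 UMIs were found in 0.178% of presumed tumour cells in the serine/glycine-free library and in 0.041% in the control library, at median depths of 10217.5 and 13522.5 UMIs, and in 0% of C1q macrophages of both libraries. Ctla4 was found in 10.0% and 10.9% of presumed tumour cells and Tnfrsf9 in 26.2% and 36.3%, so a UMI of either gene alone did not mark a T cell here. Tnfrsf4 (0.412% and 0.367%) and Icos (0.206% and 0.102%) were rarely found there.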
